A study of Rattus norvegicus with 111 samples.

Results

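Livers of 4 pregnant rats that had received PFO5DoA at 30 mg/kg/d were compared with livers of 5 pregnant rats that had received the vehicle (0.5% Tween-80, listed as 0 mg/kg/d). PFO5DoA is a perfluoroalkyl ether carboxylic acid, one of the PFAS, a class of persistent fluorinated chemicals. The dams were time-mated Sprague-Dawley rats about 11 to 12 weeks old. They were dosed by mouth from gestational day 18 to gestational day 22 and killed 2 to 4 hours after the last dose. By day 22 the dams at 30 mg/kg/d weighed about 17% less than controls, and fetotoxicity was apparent in 1 of them, per the labels. Body weight loss and the chemical cannot be told apart in this comparison. The labels give no such figure for dams at 10 mg/kg/d or under PFO4DA, so the same limit holds where these are compared below. These 9 libraries are 9 of the 111 in the series and 9 of the 51 in the PFO5DoA table. Other libraries used here are maternal livers at 10 mg/kg/d (4) and at the lower doses, fetal livers at 30 mg/kg/d (3) and 0 mg/kg/d (5) of the same dams, and maternal livers under the shorter ether acid PFO4DA at 30 mg/kg/d (4) with their own vehicle controls (6).

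As background, carboxylic PFAS accumulate in liver. Many of these acids bind the nuclear receptor PPAR alpha in rodents, which switches on genes of fatty acid oxidation, and some also activate the receptors CAR and PXR, which control drug-metabolising enzymes. Late in pregnancy the maternal liver also supplies lipid and glucose to the fetus, whereas the fetal liver still makes blood cells. None of these genes could be looked up. The tables name genes only by Ensembl rat gene IDs, of which 0 of 20311 could be paired with a symbol. The account therefore describes genes by how they behaved, and 4 of them by ID without a role. Neither pathway lists nor cell type markers were examined for the same reason, and no sequence is shown.

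The maternal libraries were chosen by expression values, because column names give the dam but not the life stage. Of the columns from a dam, the one with the higher Pearson r of log2(CPM + 1) with the single library of dam 2286, which the labels give as maternal, was taken as maternal and the other as fetal. Over 54 other dams of both chemicals, r was 0.943 to 0.988 (median 0.973) for the columns taken as maternal and 0.861 to 0.923 (median 0.899) for the others, so the ranges were separate. The gap between the columns of a dam was smallest at 0.0524 in all these dams and at 0.0567 (dam 2263) in the dams compared here. Dosed maternal libraries other than that of dam 2286 had r of 0.983 to 0.988, against 0.943 to 0.973 for control maternal libraries. Dam 2286 was itself dosed at 30 mg/kg/d, so closeness to it carries dose as well as life stage. These r values are a description, since they made the choice. The dose comparison was not used in it.

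**Figure D1:**
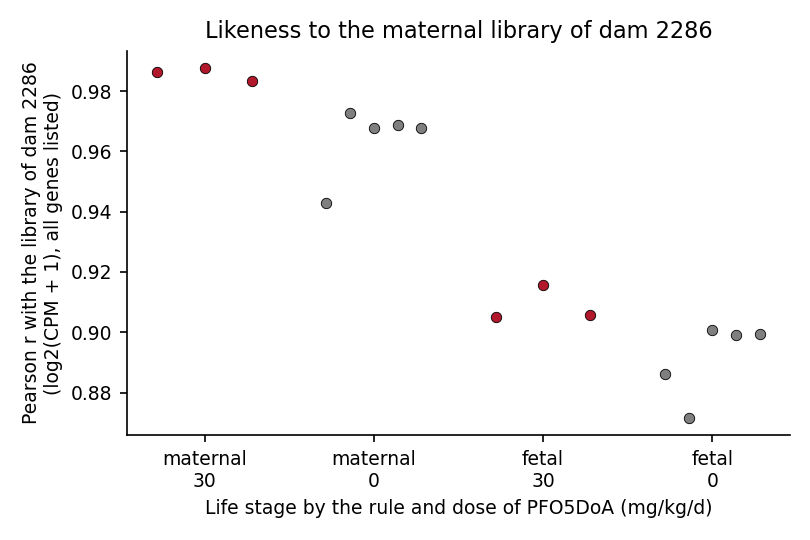
Pearson r of each library with the maternal library of dam 2286 (vertical axis, no unit) for maternal and fetal liver at 30 and 0 mg/kg/d PFO5DoA. Each point is 1 library, dosed ones in red and control ones in grey. All maternal points lie at or above 0.943 and all fetal points at or below 0.916.

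Total counts were 8406329 to 12249431 in the dosed and 7740151 to 13095096 in the control maternal libraries. Control dam 2279 was left out by the rule, because its other library held 45504 counts. Dosed libraries correlated with each other at r of 0.951 to 0.969, control libraries with each other at 0.905 to 0.975, and dosed with control libraries at 0.803 to 0.93. Control dam 2263 stood apart from the other controls, which among themselves reached 0.955 to 0.975. With dam 2263 the median SD of log2 CPM per gene was 0.323 in dosed and 0.406 in control libraries, and without it the control value was 0.303. The dams carry identifiers in 2 runs, and all 4 dosed dams share the higher run with control dams 2278 and 2280. The labels do not say what the runs stand for.

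PFO5DoA at 30 mg/kg/d changed about as many genes upward as downward in maternal liver. Of 9624 genes tested, 3119 (32.4%) had a Benjamini-Hochberg adjusted p under 0.05 by the quasi-likelihood test of edgeR. The 1609 that rose were 16.7% of the genes tested, and the 1510 that fell were 15.7%. The median log2 fold change was 1.08 for genes that rose and -1.19 for those that fell, against -0.03 over all genes tested. At least 2-fold changes numbered 931 up and 1012 down, and at least 4-fold changes 188 up and 194 down. At the far end the upward side was longer, with 91 genes at least 8-fold higher and 50 at least 8-fold lower, and with 44 against 17 at 16-fold. In bulk liver, fewer cells of a type and less RNA per cell cannot be told apart.

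The even split depended on scaling. Without the TMM scaling factors, on library totals alone, 2161 genes were called higher and 912 lower, so that 70.3% of calls were upward against 51.6% with the factors, and the median of all genes was 0.18 rather than -0.03. The factors were 1.01, 1.05, 1.04 and 1.25 in dosed dams 2285 to 2288. In controls they were 0.767 in dam 2265 and 0.918 to 1.08 in the others. Counts of calls also depended on which dams were included. Leaving out dam 2287 gave 2099 calls, of which 965 were lower, and leaving out dam 2288 gave 2107, of which 1055 were higher, whereas leaving out control dam 2263 gave 3129. With only the controls of the dosed dams' own identifier run (2278 and 2280) 1950 were called.

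**Figure D2:**
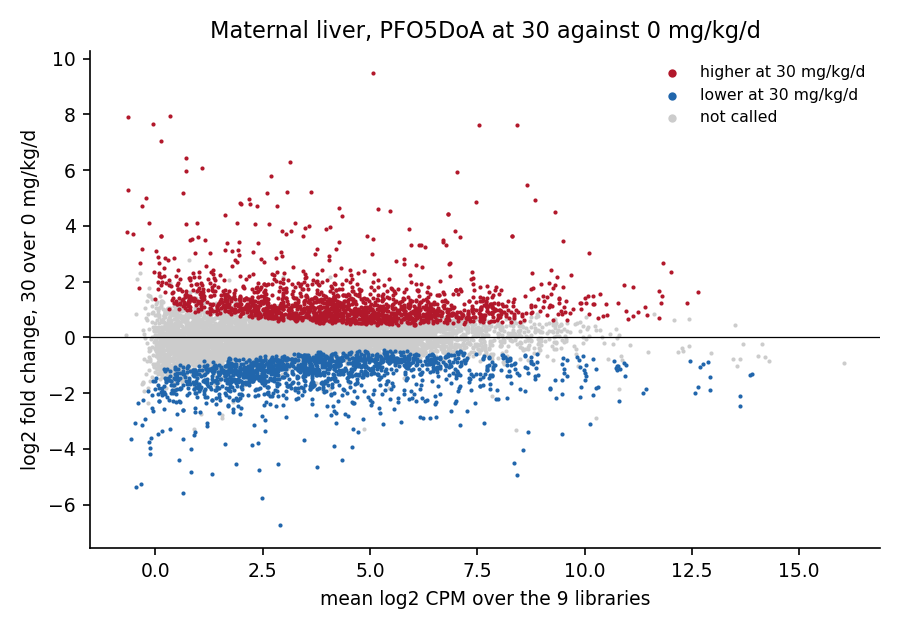
Log2 fold change at 30 over 0 mg/kg/d (vertical axis) against mean log2 CPM over the 9 maternal libraries (horizontal axis), 1 point a gene. Red marks the 1609 genes that rose, blue the 1510 that fell and grey the genes not called. The longest changes, above a log2 fold change of 7, point upward.

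For 2703 genes (28.1% of those tested) no dosed library overlapped any control library. In 1446 of these every dosed dam was above every control dam, and in 1257 every dosed dam was below. Of the called genes, 1268 that rose and 1132 that fell had no overlap, while in 719 called genes the groups overlapped by at least 1 library.

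ENSRNOG00000055221 showed the greatest rise among genes with a mean of at least 10 CPM in either group and no overlap between groups. Its level was 1119, 1620, 1139 and 1031 CPM in dosed dams 2285, 2286, 2287 and 2288, against 1.03, 1.80, 1.89, 2.12 and 1.83 CPM in control dams 2263, 2264, 2265, 2278 and 2280. Every dosed liver was far above every control. The means were 1227 ± 266 and 1.73 ± 0.413 CPM (SD, n = 4 dosed and 5 control), and the log2 fold change was 9.47 ± 0.31 (SE; adjusted p = 6.27e-10, edgeR).

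ENSRNOG00000002159 was near absent from control livers. It had 2.6, 14.9, 15.5 and 20.3 CPM in dosed dams 2285, 2286, 2287 and 2288, against 0.2 CPM in control dam 2264 and 0 CPM in the other 4 control dams. Dam 2285 was the low one among the dosed, and still above all controls. The controls held 2 counts in all and the dosed libraries 577. From these counts the CPM ratio was 376, with a 95% interval of 104 to 3111 that covers counting error only. The fitted log2 fold change of 7.95 ± 0.8 (SE; adjusted p = 2.65e-05, edgeR) depends on the prior count, since most controls were at 0. Without control dam 2264, which held both control counts, it was 10.07.

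On the other side, ENSRNOG00000010079 was almost lost at 30 mg/kg/d. Its level was 0.3, 1.4, 0.421 and 0.19 CPM in dosed dams 2285, 2286, 2287 and 2288, against 54.3, 75.8, 16.8, 154 and 32 CPM in control dams 2263, 2264, 2265, 2278 and 2280. The control livers themselves spanned a wide range, yet the lowest of them was above every dosed liver. The log2 fold change was -6.74 ± 0.85 (SE; adjusted p = 0.000384, edgeR), and it was -7.72 without dosed dam 2286 and -6.17 without control dam 2278.

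ENSRNOG00000004009 fell more evenly. It stood at 0.5, 0.546, 0.526 and 0.571 CPM in dosed dams 2285, 2286, 2287 and 2288, which are 5 to 7 counts a library, against 37.6, 40.7, 14.8, 30.1 and 27 CPM in control dams 2263, 2264, 2265, 2278 and 2280. The dosed livers scarcely differed from each other, and the groups did not overlap. The log2 fold change was -5.78 ± 0.36 (SE; adjusted p = 2.64e-07, edgeR). These 4 IDs were picked for the size of this change, so their values below in comparisons that reuse the dosed livers describe them and are not independent support.

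Calls were more frequent among abundant genes, and the more so for rises. With the tested genes divided by mean log2 CPM into 3 classes of 3208 genes, 10.8% rose and 14.4% fell in the lowest class, 15.8% rose and 15.9% fell in the middle class, and 23.6% rose and 16.8% fell in the highest class. Power to call a gene grows with its counts, and its part in this order was not tested. The largest changes were not the preserve of abundant genes. At least 4-fold rises made up 2.49%, 1.62% and 1.75% of the lowest, middle and highest class, and at least 4-fold falls 2.81%, 1.34% and 1.9%.

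Among the most abundant transcripts of the control livers, falls outnumbered rises. Of the 10 genes with the highest mean CPM in controls, 0 rose, 4 fell and 6 were not called by edgeR, with a median log2 fold change of -0.99. Of the 100 highest in controls, 16 rose, 48 fell and 36 were not called, beside 16.7% rising and 15.7% falling among all genes tested, so the rises were near that share. Ranked instead by the dosed livers, the 100 highest held 50 that rose, 15 that fell and 35 not called. The lists had 63 genes in common. A list ranked on 1 of the groups leans toward genes that happen to be high in it, so these counts describe the top of each library type and are no test.

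Counts were spread over more genes in dosed livers. The 10 largest genes held 24.1%, 19.7%, 20.5% and 13.4% of counts in dosed dams 2285, 2286, 2287 and 2288, against 28.7%, 28.3%, 33.9%, 26.7% and 31.3% in control dams 2263, 2264, 2265, 2278 and 2280. No dosed liver reached the lowest control. The means were 19.4 ± 4.43% in dosed and 29.8 ± 2.86% in control livers (SD; exact two-sided permutation test, p = 0.0159, the smallest that 4 against 5 allows; 0.0212 after adjustment over 4 measures). The share of the 100 largest genes was 51.5 ± 5.37% in dosed and 61.6 ± 3.99% in control livers (exact permutation p = 0.0159, adjusted 0.0212).

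The number of genes that together hold 50% of the counts was 59, 76, 90 and 148 in dosed dams 2285 to 2288, against 24 to 50 in controls (exact permutation p = 0.0159, adjusted 0.0212). The mean difference was 54.4 genes with dam 2288 and 36.2 without it. The number of genes at 1 CPM or more was 9407 ± 148 in dosed and 9364 ± 285 in control livers (SD; exact permutation p = 0.825), so a difference in the number of genes detected was not seen. With control dams 2278 and 2280 alone the smallest p possible is 0.133. The differences were then -9.55 points for the 10 largest genes, -9.95 points for the 100 largest and 55.2 for the genes that hold 50% of the counts.

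**Figure D3:**
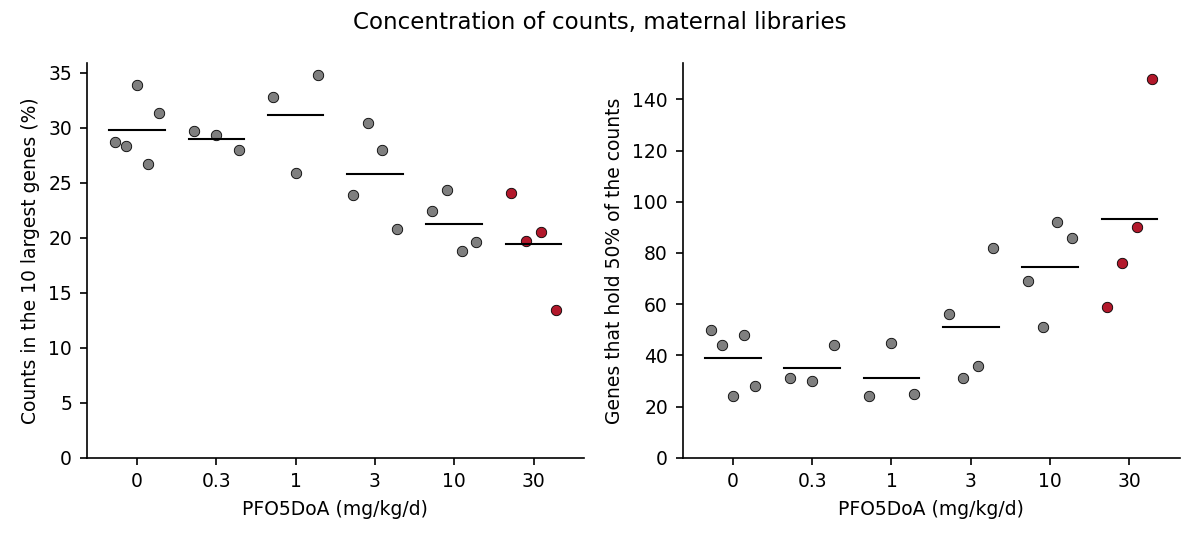
Share of counts in the 10 largest genes (left, %) and number of genes that hold 50% of the counts (right) in each maternal library, by dose of PFO5DoA in mg/kg/d. Points are libraries, red at 30 mg/kg/d and grey at other doses, and bars are group means. The share lies at 13.4% to 24.1% at 30 mg/kg/d and the number at 59 to 148 genes.

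Across doses the share of the 10 largest genes was 26.7% to 33.9% at 0, 28% to 29.7% at 0.3, 25.9% to 34.8% at 1, 20.8% to 30.4% at 3, 18.8% to 24.3% at 10 and 13.4% to 24.1% at 30 mg/kg/d. The ranges at 10 and 30 mg/kg/d overlapped each other and lay wholly below the control range.

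Seen as shares of all counts, the exchange was large. The 1609 genes called higher held 28.4%, 32.5%, 35.9% and 39.7% of the counts in dosed dams 2285, 2286, 2287 and 2288, against 9.8% to 12.4% in controls. The 1510 genes called lower held 16.1%, 16.1%, 12% and 11.9% in the same dosed dams, against 31.3% to 37% in controls. These sets were chosen by the same comparison, so the shares describe its size.

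Dosed dams lay at unlike distances from controls over the called genes. Measured against the mean of the controls, the median log2 change over the genes that rose was 0.94 in dam 2285, 0.93 in dam 2286, 1.19 in dam 2287 and 1.3 in dam 2288. Over the genes that fell it was -0.92, -0.97, -1.23 and -1.38 in those dams. Dams 2287 and 2288 were thus further from controls on both sides than dams 2285 and 2286. The genes were called with these same dams, each of which is 1 library, so the medians are a description and no test. Dam 2288 also had the highest TMM factor and the lowest share in the 10 largest genes, and the part of these in its larger distance was not tested.

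Genes typical of maternal rather than fetal liver mostly lay lower at 30 mg/kg/d. To sort genes by liver type without the PFO5DoA libraries, lists were drawn from the vehicle controls of PFO4DA, taking genes at least 32-fold higher in one liver than in the other with at least 10 CPM in it. All 66 maternal-liver genes were tested, of which 5 rose and 28 fell in edgeR's test. That is 42.4% falling, beside 15.7% of all genes tested. The genes beside it were not matched for abundance. In the highest class by mean log2 CPM 16.8% fell, and of the 100 highest genes in controls 48 fell. The part of abundance in the falls of the list was not tested. The median log2 fold change of the list was -1.14, beside -0.03 for all genes, and 56 of the 66 lay below 0. At least 4-fold falls numbered 17 of the 66, beside 194 of all 9624 genes tested, and 1 of the 66 rose at least 4-fold. Values ran from -6.74, that of ENSRNOG00000010079, to 2.68. On library totals alone 26 fell and 5 rose, beside 912 falling and 2161 rising among the 9624.

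Together the maternal-liver genes held 5.51%, 4.53%, 4.03% and 2.79% of counts in dosed dams 2285 to 2288, against 5.12% to 10.2% in controls, so the ranges overlapped. The 10.2% was control dam 2265, and the other controls stood at 5.12% to 6.01%. At lower doses of PFO5DoA the share was 4.97% to 7.6% at 0.3 and 6.66% to 7.29% at 1 mg/kg/d. It was 3.86% to 6.71% at 3 and 3.63% to 5.89% at 10 mg/kg/d. The vehicle dams of PFO4DA, from which the lists were drawn, stood at 4.56% to 6.54%. The range of the dosed dams overlapped those at 0.3, 3 and 10 mg/kg/d and that of the PFO4DA vehicle dams. Of the 197 fetal-liver genes only 72 had counts enough to be tested in maternal liver, of which 8 rose and 8 fell. That is 11.1% each, beside 16.7% rising and 15.7% falling among all genes tested, and the median log2 fold change was -0.33. The 125 others are not covered by these counts. The fetal-liver genes summed to 0.187% to 0.24% of counts in dosed and 0.151% to 0.31% in control maternal livers, whereas they held 9.88% to 28.6% in the fetal livers of these dose groups. The list median beside that of all genes is a description, and the lists rest on the same life stage rule as the groups.

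Maternal livers at 30 mg/kg/d also differed from those at 10 mg/kg/d. In a fit over all maternal PFO5DoA doses from 0 to 30 mg/kg/d, 775 of 10615 genes (7.3%) differed between 30 and 10 mg/kg/d, 411 higher and 364 lower (edgeR, adjusted p under 0.05). The median log2 difference was 0.95 for those higher and -1.09 for those lower, and 42 were at least 4-fold higher and 46 at least 4-fold lower. In the same fit 704 genes rose and 784 fell at 10 against 0 mg/kg/d, and 2067 rose and 2155 fell at 30 against 0 mg/kg/d. The comparisons with 0 share their controls. The count for 30 against 10 rested on single dams. It was 316 without dam 2288, 427 without dam 2287, 439 without dam 2277 and 441 without dam 2284 at 10 mg/kg/d, and 960 without dam 2286.

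The 4 IDs followed unlike courses over dose. ENSRNOG00000055221 stood at 1.00 to 2.05 CPM at 0, 1.59 to 7.88 at 0.3, 26.9 to 120 at 1, 326 to 718 at 3, 672 to 933.5 at 10 and 942 to 1554 CPM at 30 mg/kg/d on the scale of this fit. Its log2 change between 3 and 0 mg/kg/d was 8.11 ± 0.47 (SE; adjusted p = 6.1e-11, edgeR), while in CPM the mean was 464 ± 175 at 3 and 1167 ± 267 at 30 mg/kg/d (SD, n = 4 each) with no overlap. The ranges at 30 and 10 mg/kg/d did not overlap either, yet the difference did not pass the test (log2 0.52, 95% interval -0.20 to 1.23, adjusted p = 0.447, edgeR). ENSRNOG00000010079 behaved oppositely. It was 30 to 53 CPM at 10 mg/kg/d, inside its control range of 16.3 to 148 CPM, and 0.174 to 1.35 CPM at 30 mg/kg/d. Its log2 difference between 30 and 10 mg/kg/d was -5.97 ± 1.01 (SE, adjusted p = 0.00231, edgeR).

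ENSRNOG00000004009 came down in steps. It had 10.9 to 27.9 CPM at 3, 3.61 to 15.5 CPM at 10 and 0.486 to 0.523 CPM at 30 mg/kg/d, against 14.4 to 39.4 CPM at 0. The log2 change was -1.74 ± 0.38 at 10 against 0 mg/kg/d (SE; adjusted p = 0.00397, edgeR), with a further -4.07 ± 0.52 at 30 against 10 mg/kg/d (adjusted p = 0.000121). ENSRNOG00000002159 was 0 to 4.59 CPM at 3, 0.471 to 5.30 CPM at 10 and 2.53 to 18.5 CPM at 30 mg/kg/d. Its 30 and 10 mg/kg/d ranges overlapped and the difference of 2.19 ± 0.78 missed the threshold (adjusted p = 0.0983, edgeR), passing it without dam 2285 (2.53, adjusted p = 0.0431).

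**Figure D4:**
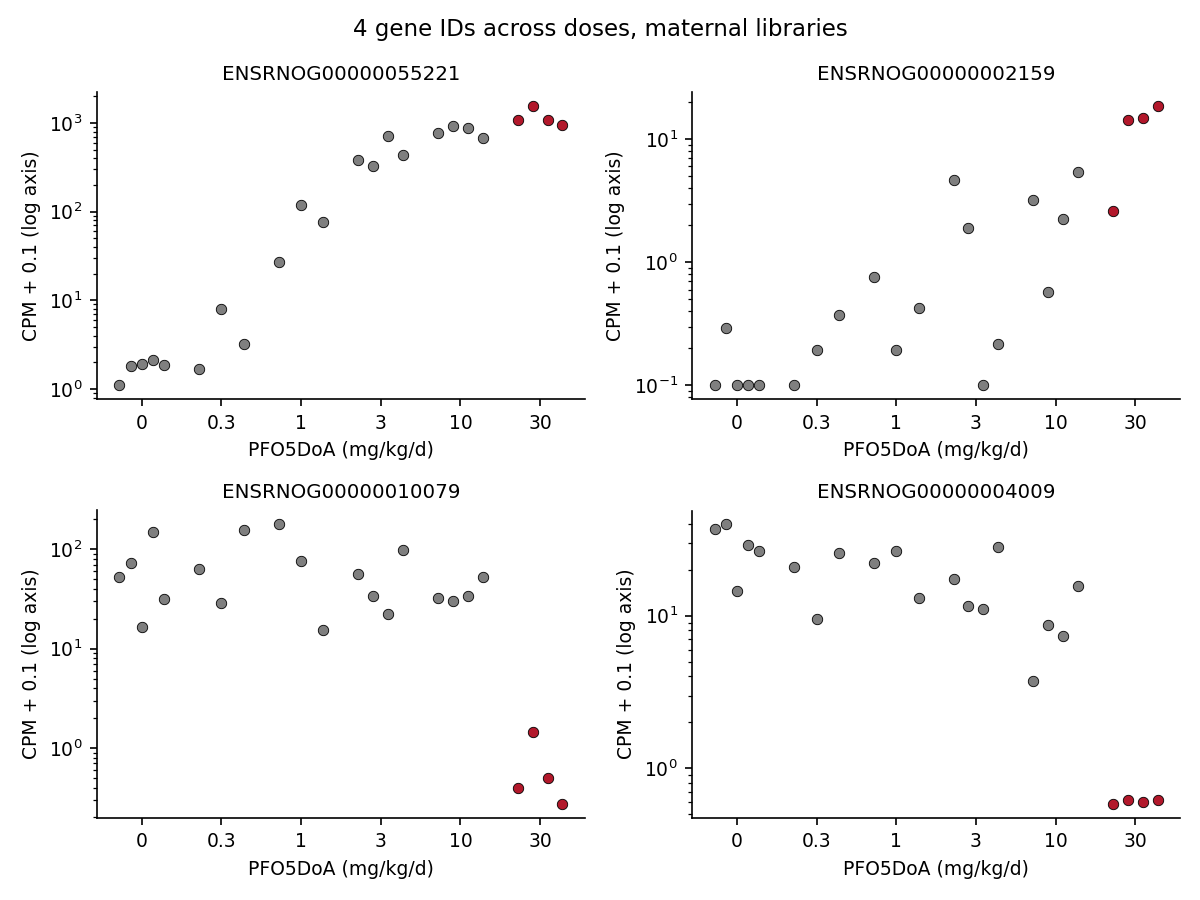
Level of the 4 gene IDs in each maternal library by dose of PFO5DoA (horizontal axis, mg/kg/d), as CPM + 0.1 on a log axis. Points are libraries, red at 30 mg/kg/d and grey at other doses. ENSRNOG00000055221 is already at 26.9 to 120 CPM at 1 mg/kg/d, whereas ENSRNOG00000010079 is low only at 30 mg/kg/d among the doses shown.

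Maternal and fetal liver of the same dams were next set side by side, to ask where the response to 30 mg/kg/d differed between them. In a fit of both livers over 11396 genes, 3644 (32%) changed in maternal liver, 1606 up and 2038 down, and 2125 (18.6%) in fetal liver, 1071 up and 1054 down. Fetal liver had 3 dosed dams and maternal liver 4, so these counts do not stand on equal footing. Genes up in both numbered 504. That is 31.4% of those up in maternal liver, beside 1071 of all 11396 genes up in fetal liver. It is 47.1% of those up in fetal liver, beside 1606 of all 11396 up in maternal liver. Genes down in both numbered 485. That is 23.8% of those down in maternal liver, beside 1054 of all 11396 genes down in fetal liver. It is 46% of those down in fetal liver, beside 2038 of all 11396 down in maternal liver. Another 80 moved in opposite directions, 42 up in maternal and down in fetal liver and 38 the reverse. Without the fetal liver of dam 2288 the fetal counts were 546 up and 619 down and the shared ones 326 up and 288 down, and without that of dam 2287 643 were up in fetal liver.

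The difference between the responses, tested as an interaction of dose and life stage, passed for 958 genes (8.41%, edgeR, adjusted p under 0.05). In 456 the maternal response was the higher and in 502 the lower. Of the 456, 196 passed the test of their own response in maternal liver alone, 139 in fetal liver alone, 68 in both in 1 direction, 42 in opposite directions and 11 in neither. Of the 502, the same classes held 286, 136, 25, 38 and 17 genes. Over the 456 the median log2 fold change was 0.9 in maternal and -0.93 in fetal liver, and over the 502 it was -0.98 in maternal and 0.59 in fetal liver. The genes were chosen by this difference, so medians that lie apart follow from the choice and only describe its size. The count rested on the 3 fetal dosed libraries, and was 504 without the fetal liver of dam 2288 and 629 without that of dam 2287. The 502 became 211, 241 and 270 without the fetal liver of dam 2288, 2287 or 2285, and 281 without the maternal liver of dam 2288.

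ENSRNOG00000055221 rose in both livers. On the scale of this fit it had 1122.5 to 1875 CPM in dosed and 1.24 to 2.46 CPM in control maternal livers. In fetal livers it had 803, 666 and 505 CPM in dosed dams 2285, 2287 and 2288, against 5.17 to 13.5 CPM in controls. The maternal response exceeded the fetal one by 3.03 ± 0.42 on the log2 scale (SE, adjusted p = 0.000152, edgeR), with a lower dosed level and a higher control level in the fetal livers. ENSRNOG00000002159 had 9.46, 9.44 and 5.21 CPM in fetal livers of the same dosed dams, against 0.266 to 1.33 CPM in fetal controls. Its maternal response was higher by 4.29 ± 1.11 (SE, adjusted p = 0.0204, edgeR), a call lost with the dam as a block (3.88, adjusted p = 0.0854). Without the maternal liver of control dam 2264, which held both counts of the maternal controls, it was 6.65 (adjusted p = 0.0185).

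For the IDs that fell in maternal liver, a difference between livers was not shown. ENSRNOG00000004009 had 1.23, 0.461 and 0.893 CPM in fetal livers of dosed dams 2285, 2287 and 2288, against 66.9 to 131 CPM in fetal controls, a log2 change of -6.67 ± 0.42 (SE, adjusted p = 1.22e-09, edgeR). The maternal minus fetal difference was 0.82 with a 95% interval of -0.25 to 1.89 (adjusted p = 0.37). ENSRNOG00000010079 was at 0.0744 to 0.231 CPM in dosed fetal livers and at 0.167 to 0.724 CPM in 4 fetal controls, but at 37.2 CPM in the fetal liver of control dam 2278, whose maternal liver also held the highest level. With that library in, the maternal minus fetal difference was -1.22 (95% interval -8.36 to 5.91, adjusted p = 0.878), and without it -5.53 (adjusted p = 0.0843, edgeR). The change of this ID in fetal liver was -5.57 ± 2.16 (SE, adjusted p = 0.093, edgeR), so a fall in fetal liver was not called. Its level in 4 fetal controls left little room for one.

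PFO4DA has the same kind of chain as PFO5DoA but shorter by an ether-linked difluoromethylene unit. At the matched dose of 30 mg/kg/d over the same days, each against its own vehicle dams, it changed far fewer genes in maternal liver. Of 10146 genes in a fit of both chemicals, 42 rose and 0 fell under PFO4DA (0.414%), against 1973 up and 2113 down under PFO5DoA (40.3%; edgeR, adjusted p under 0.05). At an unadjusted p of 0.05, 320 were higher and 181 lower under PFO4DA. Together these, which include the 42, are near the share of 0.05 that such a threshold passes by chance. More of them were higher than lower. These counts cannot tell whether PFO4DA changed genes beyond the 42, and no conclusion is drawn from them. The chemicals were compared at 1 dose by weight, as this 1 pair. Lower body weight is given only for the PFO5DoA dams, so it cannot be told apart from the chemical here.

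The PFO5DoA response differed from the PFO4DA response in 1594 genes (15.7%), being higher in 750 and lower in 844. Of the 750, 717 had changed under PFO5DoA alone, 25 under both and 8 under neither by its own test. Over the 750 the median log2 fold change was 1.29 under PFO5DoA and 0.1 under PFO4DA, and over the 844 it was -1.37 under PFO5DoA and -0.05 under PFO4DA. As these genes were chosen by the difference between the chemicals, the medians only describe its size. Leaving out dam 2287 gave 1082 such genes and leaving out control dam 2278 gave 1839. Without dam 2288 the 844 became 560.

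The few genes that PFO4DA did raise were nearly all raised by PFO5DoA as well. Of the 42, 41 rose under PFO5DoA (97.6%), beside 1973 of all 10146 genes tested. The 41 are 2.08% of the 1973. Their median log2 fold change was 3.41 under PFO5DoA and 1.78 under PFO4DA. The difference between the chemicals passed for 26 of the 42, with PFO5DoA higher in 25. The remaining 16 were not shown to differ, which does not show that the chemicals act alike on them.

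**Figure D5:**
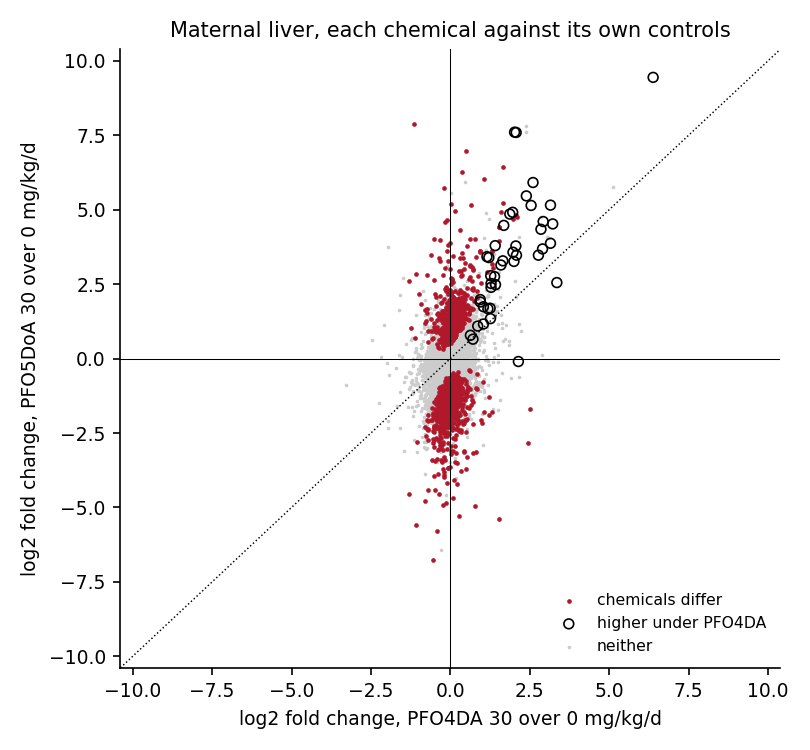
Log2 fold change in maternal liver at 30 over 0 mg/kg/d under PFO5DoA (vertical axis) and PFO4DA (horizontal axis), each against its own controls, 1 point a gene. Circles mark the 42 genes that rose under PFO4DA, red points the other genes whose response differed between the chemicals, grey the rest, and the dotted line equal change. Of the circles, 41 rose under PFO5DoA, beside 1973 of all 10146 genes tested.

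ENSRNOG00000055221 was among the genes raised by both chemicals. On the scale of this fit it had 952 to 1571 CPM in PFO5DoA dams at 30 mg/kg/d and 1.01 to 2.07 CPM in their controls. Under PFO4DA at 30 mg/kg/d it had 134.5, 80.9, 61.4 and 43.4 CPM, against 0.593 to 1.76 CPM in the controls of PFO4DA. Both responses kept dosed and control livers apart, at 9.44 under PFO5DoA as the highest of the 42 and at 6.38 ± 0.32 under PFO4DA (SE, adjusted p = 5.8e-12, edgeR). The chemicals differed by 3.07 ± 0.46 (SE, adjusted p = 0.000167).

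The other 3 IDs showed no called change under PFO4DA. ENSRNOG00000010079 had 0.176 to 1.36 CPM in PFO5DoA dams at 30 mg/kg/d against 16.4 to 150 CPM in their controls, while under PFO4DA it had 11.9 to 112 CPM at 30 mg/kg/d against 14.7 to 136 CPM in controls. The difference between the chemicals was -6.19 ± 1.24 (SE, adjusted p = 0.00414, edgeR). ENSRNOG00000004009 had 0.491 to 0.529 CPM in dosed PFO5DoA dams and 14.5 to 39.7 CPM in their controls, and under PFO4DA 14.2 to 44.7 CPM at 30 mg/kg/d against 17.5 to 44.5 CPM in controls. The chemicals differed by -5.38 ± 0.53 (SE, adjusted p = 2.27e-06, edgeR).

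ENSRNOG00000002159 had 1 count in all PFO4DA dams at 30 mg/kg/d and 4 counts in all their controls, so no change could be measured there. The difference of 9.02 ± 2.11 (SE, adjusted p = 0.00668, edgeR) rests on these 5 counts and on the 2 counts of the PFO5DoA controls, and it was 7.74 with an adjusted p of 0.134 without control dam 2308, which held 3 of them.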

How the data were processed

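TempO-Seq, a targeted RNA-seq assay that ligates and sequences a pair of detector oligos per site, was run on liver RNA with 22253 probes for 20924 genes, per the labels' protocols. The authors deposited unnormalized estimated counts of each gene in each library, in a table for each chemical. Partek, STAR (2.7.8a), DESeq2, R and the build mRatBN7.2 are named in the submitters' processing notes, without their roles. Decimals occurred in 12.2% of the deposited PFO5DoA values and 11.8% of the PFO4DA values, which were rounded. Each gene is read at few positions, so levels are not compared between genes per length.

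Genes were kept by filterByExpr and tested with edgeR 4.0.16 (R 4.3.3) by quasi-likelihood F tests with TMM scaling and Benjamini-Hochberg adjustment over all genes tested, at 0.05. CPM are TMM-scaled. The fits were maternal livers at 30 and 0 mg/kg/d, all maternal PFO5DoA doses of at least 3 dams, maternal and fetal liver with an interaction, and both chemicals with an interaction. The tables of the chemicals were fitted together only for the last of these, where each response is taken within its own table. Replicates are separate dams, per the labels. No libraries of a group were alike within counting noise (the lowest chi-square per degree of freedom was 21.7). Scripts were tested on simulated data. DESeq2 1.42.0, limma 3.58.1 and the other alternatives are in the closing section.

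The groups, lists and tests were chosen with earlier results of these data known. The rule for named genes asked for a symbol. As none was to be had, the 2 strongest IDs in each direction that met its other terms were named (998 genes met them upward and 750 downward). The 31 gene lists could not be looked up. Maternal and fetal livers with the same identifier come from the same dam, so the dam pairs them (correlation of their deviations -0.132 to 0.423). Title numbers in the other comparisons do not mark the same animal.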

Additional observations from a re-analysis of the deposited data

Results flagged for a closer look

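Within groups, 43 sets of values were checked for a single library far from the rest, and 7 showed one, where chance gives about 1 in 20, or 2.1. Control dam 2263 had the lowest r with dam 2286 among maternal controls (0.943). These r values made the choice of the maternal libraries, so this flag is a description and no test. Control dam 2265 had the highest share of counts in maternal-liver genes (10.2%). For ENSRNOG00000002159 the libraries standing apart were control dam 2264 of PFO5DoA (0.2 CPM), and under PFO4DA dosed dam 2317 (0.106 CPM) and control dam 2308 (0.313 CPM), all of them 1 to 3 counts. In the sets of dams 2264 and 2317 every other library had 0 CPM. Any count is flagged in such a set, so the 2.1 does not hold there. For ENSRNOG00000010079 it was the fetal liver of PFO5DoA control dam 2278 (37.2 CPM), and for ENSRNOG00000055221 the PFO4DA control dam 2310 (1.76 CPM).

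The response at 30 mg/kg/d PFO5DoA differed between maternal and fetal liver, by the interaction test, in 958 genes, among them ENSRNOG00000055221 (log2 difference 3.03) and ENSRNOG00000002159 (4.29). It differed between PFO5DoA and PFO4DA in 1594 genes, among them ENSRNOG00000002159 (9.02), ENSRNOG00000004009 (-5.38), ENSRNOG00000010079 (-6.19) and ENSRNOG00000055221 (3.07).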

How the results depend on the processing

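The 3119 calls at 30 against 0 mg/kg/d became 1943 with a minimum fold of 2 and 1950 with control dams 2278 and 2280 alone. They numbered 3506 by DESeq2, 3111 by limma-voom, 3116 with RLE scaling, 2944 without the filter on low counts, 3465 with dam 2279, 2318 with control dams 2263 to 2265 alone, and 4222 with all doses in 1 fit. Leaving out 1 library gave 2099 to 3129 calls at 30 against 0, 316 to 960 at 30 against 10 mg/kg/d, 504 to 1196 for maternal minus fetal response, and 1082 to 1839 for PFO5DoA minus PFO4DA. For the composition of the libraries it gave -11.9 to -8.35 points (10 largest genes), -11.8 to -7.64 points (100 largest), 36.2 to 65.9 genes (holding 50% of counts) and -69.8 to 119 genes (at 1 CPM). With control dams 2278 and 2280 alone the first 3 were -9.55, -9.95 and 55.2, at an exact permutation p of 0.133, the smallest possible. The 4 IDs kept direction and side of the threshold at 30 against 0 in all 21 alternatives.

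With title numbers as a replicate block the counts were 2273 (30 against 0), 644 (30 against 10) and 763 (between chemicals). The block leaves out dams without a partner. The same dams without the block gave 2420 and, between chemicals, 887. The numbers do not pair the animals (correlations of deviations -0.181 to 0.162, 1 of 4 over 0.1, at 30 against 0). With the dam as block, maternal minus fetal gave 981. It changed no call on the IDs other than that of ENSRNOG00000002159. For maternal minus fetal response DESeq2 called 846 higher (456 by edgeR), and 334 were lower without the filter (502 with it).

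An alternative life stage rule by a single fetal gene was not run, for want of gene names. The fit without scaling factors, the low-identifier controls, the fits on the block's dams and the other list folds were chosen after seeing the data. With 8-fold and 100-fold lists, 68 of 153 (44.4%) and 15 of 37 (40.5%) maternal-liver genes fell, beside 15.7% of all genes tested. Abundance was not matched here either. Over the alternatives 19 to 35 of the 66 maternal-liver genes fell and 3 to 6 rose, and 3 to 13 of the fetal-liver genes fell and 5 to 10 rose. Among all genes tested 912 to 2155 fell and 931 to 2161 rose over the same alternatives. Under PFO4DA 0 to 2 genes fell. Counts of 1 to 7 a library limit the lowest levels given.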

Other observations

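The maternal library of control dam 2279, left out of every comparison with the dam, held 35.2% of its counts in its 10 largest genes, and 23 genes held 50% of its counts, which is just outside the range of the 5 controls used (26.7% to 33.9%, and 24 to 50 genes).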
